A study of Mus musculus with 6 samples.

Results

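Every member of the MHC class II antigen presentation machinery that was examined here had a lower mean RNA level in Lyve-1+ than in Lyve-1- mammary macrophages. The members were taken from the count table by gene symbol: the chains of the classical class II molecules H2-Aa, H2-Ab1 and H2-Eb1, the invariant chain Cd74, the peptide editing chains H2-DMa, H2-DMb1, H2-DMb2, H2-Oa and H2-Ob, and the class II transactivator Ciita. These were 10 of the 24061 gene symbols in the table, and all 10 passed the filter that left 13348 genes for testing. The difference with the lowest p was that of H2-Ab1, which was 2.73-fold lower in Lyve-1+ cells. At an adjusted p under 0.01 in edgeR, 0 of 10 members were called, and H2-Oa had too few counts for a usable direction.

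Class II molecules are pairs of an alpha and a beta chain that carry peptides from the endosomal pathway to the cell surface, where CD4+ T cells read them. The invariant chain occupies the peptide groove of new class II molecules and guides them to endosomes, H2-DM then exchanges its remnant for other peptides, and H2-O restrains H2-DM, chiefly in B cells and some dendritic cells. Ciita does not bind DNA itself but is recruited to class II promoters by a complex of RFX, CREB and NF-Y proteins on the X and Y boxes, and macrophages vary widely in how much class II they carry.

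The study sorted macrophages from the inguinal mammary glands of FVB/N mice to ask whether cells with and without the hyaluronan receptor Lyve-1 have distinct transcriptional profiles. All cells were CD45+CD11b+F4/80+, the inguinal lymph nodes had been removed, and each library held the cells of a pool of 4 mice, both glands of each. Each subset had 3 libraries: replicate 1 came from 6-week-old mice and replicates 2 and 3 from 10-week-old mice, so that age is carried by 1 library a subset. No mouse was treated or mutant as far as the labels say, and p-values below measure the spread between pools.

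Library totals ran from 6478007 to 21406839 counts. Lyve1 RNA, the product used for the sort, was at 1.43, 6.66 and 7.43 CPM (counts scaled to a common effective library size) in the Lyve-1- libraries and at 2352, 788 and 597 CPM in the Lyve-1+ libraries, so each library matched its label. Macrophage markers were present in all libraries, with sums over 9 genes of 4855 to 7479.7 CPM in Lyve-1- and 5849 to 7232 CPM in Lyve-1+ cells. Counts in 1122 olfactory receptor genes, which macrophages are not known for, were unevenly spread. The third replicate of the Lyve-1- subset had 9406 such counts on 652 of the genes, and Lyve-1+ replicates 1 and 2 had 3617 on 370 and 4160 on 134. The other libraries had 122 to 331 on 4 to 34 genes. At the density of those counts over exons, the share of a member's own count reached 32.4% for H2-Oa (Lyve-1+ replicate 2), 4.03% for H2-Ob and 2.52% for Ciita in the library where it was highest, and at most 1.42% for the other members.

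In mm10 the genes for H2-Oa (chr17:34092340-34095234), H2-DMa (chr17:34119541-34139101), H2-DMb2 (chr17:34143307-34151555), H2-DMb1 (chr17:34153072-34160230), H2-Ob (chr17:34238903-34254414), H2-Ab1 (chr17:34257689-34269419), H2-Aa (chr17:34282744-34287823) and H2-Eb1 (chr17:34305867-34316674) lie side by side on chromosome 17. Of these H2-Aa is on the minus strand and the others are on the plus strand. Ciita is on the plus strand of chromosome 16 (chr16:10480059-10528418), and Cd74 is on a further chromosome. Exons of H2-DMa share 360 bases with the opposite-strand gene Brd2, those of H2-Oa 321 bases with BC051537, and those of Ciita 329 bases with Dexi. Since the strand setting of the counting is not given in the sources used here, reads in those stretches may belong to either gene. H2-DMb1 and H2-DMb2 are tandem copies with near-identical stretches, so the division of reads between them is uncertain.

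Promoter windows from RefSeq (GRCm38.p6, 250 bases before to 50 bases after a transcript start) were given for 7 of the 10 members and were searched on both strands for the core letters of the X box, AGCAAC, and the Y box, GATTGG. All 7 members held the Y core in a window, against 16.1% of all 32851 windows, and H2-DMa also had a window without it. The X core preceded the Y core on the same strand, with starts at most 60 bases apart, in H2-Oa, H2-Ob and H2-Eb1, against 0.307% of all windows. The starts were 33 bases apart in H2-Oa, 30 bases in H2-Ob and 32 bases in H2-Eb1. The sequences below are shown because X and Y boxes are the known elements of class II promoters. Whether these matches recruit Ciita was not tested. Each is 70 bases of the sense strand, 5′ to 3′, with the letters that match the X and Y cores in capitals. H2-Eb1 and H2-Ob hold both, while H2-Aa and H2-DMb2 hold the Y core without these exact X letters.
H2-Eb1, chr17:34305757-34305826, plus strand: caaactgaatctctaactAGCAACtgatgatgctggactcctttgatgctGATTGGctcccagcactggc
H2-Ob, chr17:34238797-34238866, plus strand: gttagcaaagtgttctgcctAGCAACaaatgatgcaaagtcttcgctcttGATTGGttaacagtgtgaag
H2-Aa, chr17:34287853-34287922, minus strand: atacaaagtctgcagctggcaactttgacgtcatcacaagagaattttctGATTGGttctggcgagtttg
H2-DMb2, chr17:34145108-34145177, plus strand: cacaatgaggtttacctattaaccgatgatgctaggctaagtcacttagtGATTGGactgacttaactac
Members with both cores and members with the Y core alone had lower means in Lyve-1+ cells alike, and no test compared them. The subsets overlapped for H2-Oa and H2-Ob, which hold both cores, and for H2-DMb2, which holds the Y core alone.

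The class II chains and the invariant chain were the abundant members. Cd74, which encodes the invariant chain from the plus strand of chromosome 18 (chr18:60803848-60812652), was at 9339.9, 8421 and 8973 CPM in Lyve-1- replicates 1 to 3 and at 2265, 3696 and 5376 CPM in Lyve-1+ replicates 1 to 3. The groups did not overlap, and the Lyve-1+ libraries were spread more widely than the Lyve-1- libraries. The means of 8911 ± 463 and 3779 ± 1557 CPM (SD, n = 3 each) differed by -1.24 on the log2 scale (SE 0.27), with an adjusted p of 0.0589 in edgeR's quasi-likelihood test with Benjamini-Hochberg adjustment. Cd74 thus missed both limits used here, 0.01 and 0.05, in the main test, although the same counts gave an adjusted p of 0.00421 in DESeq2.

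H2-Ab1, the beta chain of the A molecule, was at 2358, 1915 and 2126 CPM in the Lyve-1- libraries and at 407, 884 and 1052 CPM in the Lyve-1+ libraries. Again no Lyve-1+ library reached the lowest Lyve-1- library. The means of 2133 ± 222 and 781 ± 334 CPM differed by -1.45 on the log2 scale (SE 0.31), with an adjusted p of 0.0466 by edgeR's quasi-likelihood test and 0.00129 by DESeq2. This was the one member under an adjusted p of 0.05 in the main edgeR test. It moved above that limit when Lyve-1- replicate 1 (0.0512), Lyve-1- replicate 3 (0.161) or Lyve-1+ replicate 1 (0.0509) was left out. Without Lyve-1+ replicate 3, H2-Ab1 and Cd74 passed the stricter limit, with adjusted p-values of 0.0086 and 0.00399.

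H2-Aa, the alpha chain that pairs with H2-Ab1, was at 1526, 1407 and 1262 CPM in Lyve-1- cells and at 282, 608 and 991 CPM in Lyve-1+ cells. The order of the Lyve-1+ replicates was that seen for Cd74 and H2-Ab1, with replicate 1 lowest. Its log2 fold change was -1.16 (SE 0.36), with an adjusted p of 0.287. H2-Eb1, the beta chain of the E molecule, was far less abundant, at 89.3, 108 and 89.8 CPM against 22.8, 64.3 and 63 CPM. Its groups did not overlap either, but Lyve-1+ replicates 2 and 3 lay near the Lyve-1- libraries, and the log2 fold change of -0.94 (SE 0.41) had an adjusted p of 0.574.

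**Figure D1:**
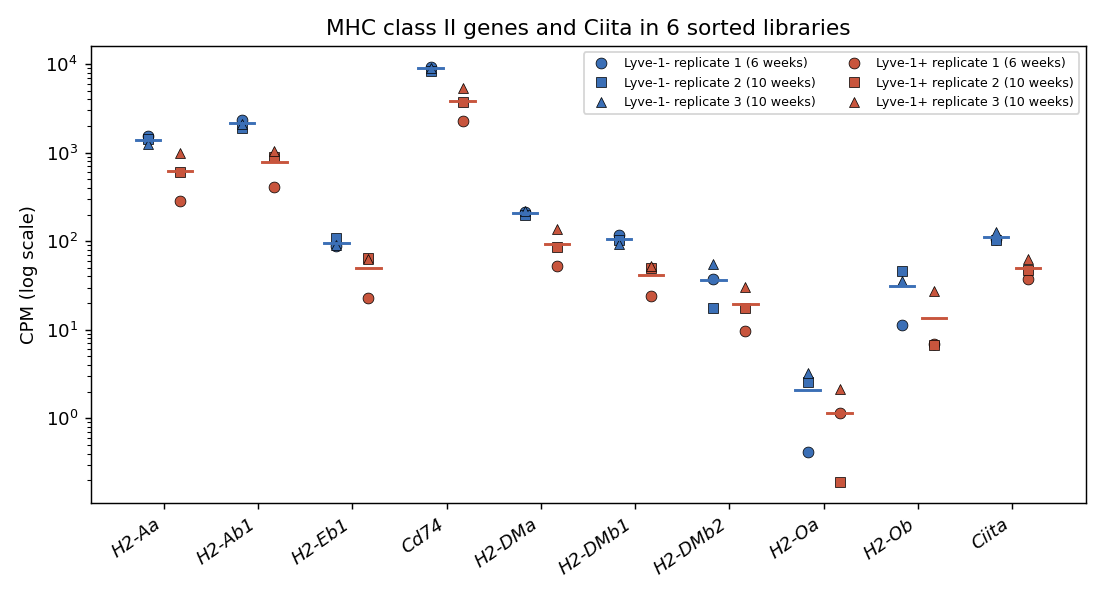
Levels of the 10 members in CPM on a log axis, with 1 point for each library (blue, Lyve-1-; red, Lyve-1+; the marker shape gives the replicate) and a line at the mean of each subset. For Cd74, H2-Ab1, H2-Aa, H2-Eb1, H2-DMa, H2-DMb1 and Ciita all red points lie below all blue points, with the 6-week Lyve-1+ library lowest.

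The chains of H2-DM, the editor of class II peptides, had lower means in Lyve-1+ cells, and none passed the test. H2-DMa was at 211, 200.2 and 217 CPM in Lyve-1- libraries and at 53, 86.7 and 139 CPM in Lyve-1+ libraries. The Lyve-1- values lay within a narrow band (209 ± 8.39 CPM), and the Lyve-1+ values (92.9 ± 43.3 CPM) lay wholly below it, with a log2 fold change of -1.17 (SE 0.34) and an adjusted p of 0.21. H2-DMb1 was at 119, 102 and 93 CPM against 24, 49.7 and 51.9 CPM. Its log2 fold change was -1.32 (SE 0.38), the second in size among the members, and its adjusted p was 0.195. H2-DMb2 did not separate the subsets: it was at 37.5, 17.4 and 55.4 CPM in Lyve-1- and at 9.68, 17.8 and 30.7 CPM in Lyve-1+ cells. Its log2 fold change was -0.92 (SE 0.61; adjusted p 0.93).

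The chains of H2-O, the inhibitor of H2-DM, were scarce and, as with H2-DMb2, their subsets overlapped. H2-Ob was at 11.4, 46.4 and 35.4 CPM in Lyve-1- libraries and at 6.86, 6.76 and 27.6 CPM in Lyve-1+ libraries. Here the lowest Lyve-1- value was that of the 6-week library, and Lyve-1+ replicate 3 exceeded it. The log2 fold change of -1.18 was as large as for H2-DMa, but its SE was 0.73 and its adjusted p 0.892. H2-Oa had only 5, 29 and 22 raw counts in Lyve-1- and 15, 4 and 17 raw counts in Lyve-1+ libraries, so its log2 fold change of -0.84 (SE 2.33; adjusted p 1) gives no usable direction at this depth. It was 0.13 when Lyve-1- replicate 3 and Lyve-1+ replicate 2, the libraries with the highest olfactory receptor counts, were both left out.

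Ciita, the coactivator that class II promoters need, was at 107, 104 and 128 CPM in Lyve-1- libraries and at 37.8, 47.8 and 63.1 CPM in Lyve-1+ libraries. The subsets did not overlap, and the 3 Lyve-1+ libraries were closer to each other than for the class II chains. The means of 113 ± 13.3 and 49.6 ± 12.8 CPM (SD, n = 3 each) were apart by -1.19 on the log2 scale (SE 0.34), with an adjusted p of 0.189 in edgeR and 0.0427 in DESeq2.

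Counted together, 10 of 10 members had a log2 fold change below 0, against 50.6% of all genes tested, with a median of -1.18 against -0.01. At an adjusted p under 0.01 with a log2 fold change beyond 1, edgeR called 0 of 10 members, where it called 0.112% of all genes, and 0.00749% as lower in Lyve-1+ cells. At an adjusted p under 0.05 it called 1 member (0.18% of all genes lower), and 7 members had an unadjusted p under 0.05 (7.69% of all genes, 3.5% as lower). DESeq2 called 2 members at the stricter limit (0.403% of all genes lower), H2-Ab1 and Cd74, and 3 under 0.05 (1.17%), with Ciita as the addition. In 7 of 10 members all Lyve-1+ libraries lay below all Lyve-1- libraries, against 6.5% of all genes tested. In each of those 7, Lyve-1+ replicate 1 was the lowest of the 6 libraries, a pattern that 2.23% of all genes shared. The members were chosen with earlier results of these data known, and they share libraries and a regulator, so these counts are descriptions. In bulk libraries, fewer class II-bearing cells and less class II RNA per cell cannot be told apart.

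Levels of the members among themselves were compared as CPM per kilobase of exon (CPM per kb). In Lyve-1- cells Cd74 led with 6293 ± 327 CPM per kb, followed by H2-Ab1 with 1759.8 ± 183 and H2-Aa with 1239.6 ± 117. The ranges of these 3 genes did not overlap. The next tier was far lower, with H2-DMa at 78.5 ± 3.15, H2-DMb1 at 74.5 ± 9.4 and H2-Eb1 at 57.4 ± 6.52 CPM per kb, of which H2-DMa and H2-DMb1 overlapped. H2-DMb2 (21 ± 10.9), Ciita (13.7 ± 1.62) and H2-Ob (8.85 ± 5.09) each overlapped with the neighbour in that order, and H2-Oa was lowest at 1.9 ± 1.34 CPM per kb. FVB/N mice carry another H2 haplotype than the reference strain, so that reads of the polymorphic chains may map less well, which affects levels between genes more than the comparison of subsets.

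In Lyve-1+ cells the order was the same apart from H2-Eb1 (30 ± 14.2 CPM per kb) and H2-DMb1 (29.8 ± 11.1), which changed places within overlapping ranges. Cd74 was still set apart at 2669 ± 1099.8 CPM per kb. H2-Ab1 (644 ± 276) and H2-Aa (556 ± 315) now overlapped, and from H2-DMa (34.8 ± 16.2) downwards every member overlapped with its neighbour in the order.

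Ratios of members within a library, which need no scaling between libraries, were compared for 8 pairs by an exact two-sided permutation test, where the smallest p possible with 3 against 3 libraries is 0.1. The ratio of Cd74 to H2-Ab1 per kb was 3.39, 3.76 and 3.61 in Lyve-1- and 4.76, 3.58 and 4.37 in Lyve-1+ libraries. The ratio of H2-Aa to H2-Ab1, the chains of a single molecule, was 0.695, 0.79 and 0.638 against 0.744, 0.739 and 1.01. The ratio of Ciita to H2-Ab1 was 0.00668, 0.008 and 0.00889 against 0.0137, 0.00797 and 0.00884. These ratios overlapped between the subsets, as did those of H2-Eb1 and H2-DMa to H2-Ab1, of H2-DMb2 and H2-Ob to H2-DMb1 and of H2-Oa to H2-DMa. The exact permutation p-values ran from 0.2 to 0.9, and the Benjamini-Hochberg values from 0.571 to 0.9. The 3 against 3 design cannot pass 0.05, and without Lyve-1+ replicate 2 the groups did not overlap in 3 of the 8 ratios, without Lyve-1- replicate 2 in 2.

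**Figure D2:**
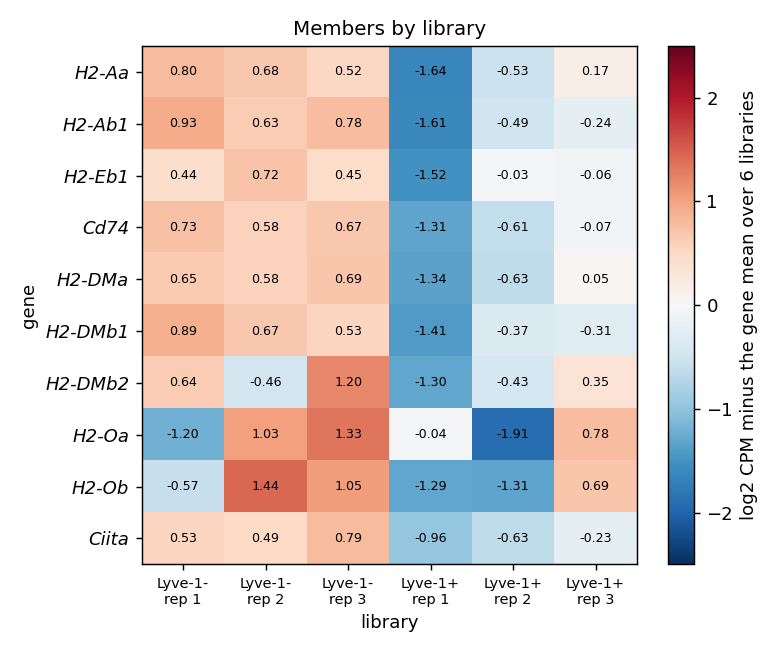
Log2 CPM of each member in each library (columns) minus the mean of that gene over the 6 libraries, in red where above and in blue where below that mean, with the value printed in each cell. For H2-Aa, H2-Ab1, H2-Eb1, Cd74, H2-DMa, H2-DMb1 and Ciita all Lyve-1+ values lie below all Lyve-1- values. Lyve-1+ replicate 1 is their lowest library, at -0.96 to -1.64. H2-DMb2 (-1.3) and H2-Ob (-1.29) are also low in that library, but their subsets overlap, as do those of H2-Oa.

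The subset difference was examined at each age, with 1 library a subset at 6 weeks and 2 at 10 weeks (log2 CPM with a prior count of 2). For H2-Ab1 the log2 difference was -2.53 in the 6-week pair and -1.06 between the 10-week means. For H2-Aa it was -2.43 and -0.78, and for Cd74 -2.04 and -0.96. The smaller difference at 10 weeks was shared by H2-Eb1 (-1.96 and -0.63), H2-DMa (-1.99 and -0.92), H2-DMb1 (-2.3 and -0.94), H2-DMb2 (-1.94 and -0.41) and Ciita (-1.5 and -1.07). H2-Ob went the other way, at -0.72 and -1.55, and H2-Oa differed in sign, at 1.16 and -1.74, on few counts.

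In the edgeR interaction of subset and age, 0 of 10 members had an adjusted p under 0.01 (0% of all genes tested), and the lowest adjusted p was 0.685, for H2-Aa. At an unadjusted p under 0.05 there were 3 members, H2-Aa (0.00516), H2-Ab1 (0.00562) and Cd74 (0.0176), against 4.59% of all genes. Across the subsets, 0 of 10 members differed between 10 and 6 weeks at an adjusted p under 0.01 in edgeR (0% of all genes), and 0 at an unadjusted p under 0.05 (3.33% of all genes), though all 10 estimates were higher at 10 weeks. Age and pool cannot be told apart here, because each subset had a single 6-week pool. The sort gene Lyve1 also had its larger log2 difference in the 6-week pair, at 10.53 against 6.57 between the 10-week means. Whether the sort differed between these libraries was not tested.

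**Figure D3:**
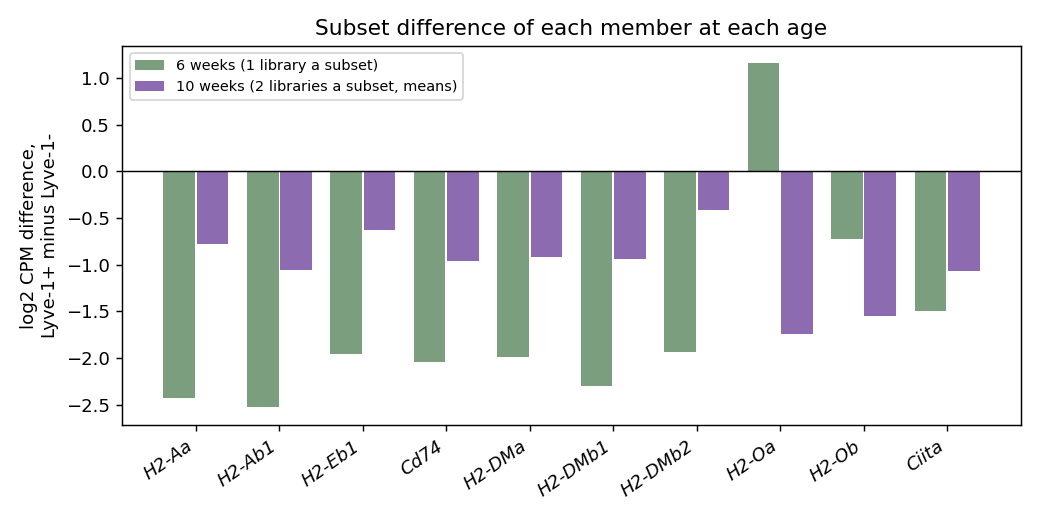
Difference in log2 CPM between Lyve-1+ and Lyve-1- cells for each member, in the 6-week pair (green) and between the means of the 10-week libraries (purple). Bars below 0 mean lower levels in Lyve-1+ cells; H2-Ab1 stands at -2.53 and -1.06, and H2-Oa is the sole member with a bar above 0.

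The genes around the members were examined by lists for each step of the pathway, chosen with earlier results of these data known. Of 7 tested genes for the RFX, CREB and NF-Y proteins that recruit Ciita, 3 had higher and 4 lower means, the list's median log2 fold change was -0.01, and 0 were under an adjusted p of 0.05 in edgeR (0.629% of all genes tested) or DESeq2, or under an unadjusted p of 0.05. The lowest was Rfx5 at -0.76 (SE 0.65; adjusted p 1), the DNA-binding subunit of the RFX complex. The highest was its partner Rfxap at 1.39 (SE 1.44; adjusted p 1), which had 0 counts in Lyve-1- replicate 1. No difference in this complex was thus detectable at this depth.

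Of 10 tested genes that act upstream of Ciita, 7 had a lower and 3 a higher mean in Lyve-1+ cells, with a median of -0.15 and 0 under an adjusted p of 0.05 in edgeR. Jak2, a kinase of the interferon gamma receptor, had the lowest value: it was at 599.6, 498 and 486 CPM in Lyve-1- and at 84.1, 223 and 288 CPM in Lyve-1+ libraries. Its groups did not overlap, and Lyve-1+ replicate 1 was again the lowest, with a log2 fold change of -1.41 (SE 0.37) and an adjusted p of 0.145; it was the 1 gene of the list with an unadjusted p under 0.05, and its adjusted p was 0.023 in DESeq2. Ifng itself did not pass the filter on low counts.

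Of 9 tested genes for endosomal proteases and other enzymes that prepare peptides and cut the invariant chain, 6 had higher and 3 lower means, and the median was 0.22. In edgeR 1 was under an adjusted p of 0.05 and 4 under an unadjusted p of 0.05, and in DESeq2 2 were under an adjusted p of 0.05. Ctsl, which encodes the protease cathepsin L, was at 115, 160.1 and 70.4 CPM in Lyve-1- and at 343, 359 and 301 CPM in Lyve-1+ libraries. All Lyve-1+ libraries lay above all Lyve-1- libraries, and the log2 fold change of 1.54 (SE 0.31) had an adjusted p of 0.0396 in edgeR, where 0.45% of all genes were higher under 0.05. Ctsb, for cathepsin B, was at 2360.3 ± 687 and 4552 ± 646 CPM (SD, n = 3 each), also without overlap, at 0.95 on the log2 scale (SE 0.25; adjusted p 0.141 in edgeR and 0.03 in DESeq2). Ctsd, for cathepsin D, was at 618 ± 102 and 1121 ± 241 CPM without overlap (0.86 on the log2 scale, SE 0.25; adjusted p 0.216), and Lgmn, for the protease legumain, at 489 ± 159.8 and 894 ± 413 CPM with overlap (0.87, SE 0.33; adjusted p 0.459). Ctss, for cathepsin S, the main invariant chain protease of professional antigen-presenting cells, was at 1317 ± 68.5 and 1257 ± 291 CPM, a log2 fold change of -0.07 (SE 0.24; adjusted p 1). The lowest of the list was Ifi30, a thiol reductase, at -0.48 (SE 0.3; adjusted p 0.896).

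March1 and March8 encode membrane ubiquitin ligases that send class II molecules to degradation, and both had higher means in Lyve-1+ cells. March1 was at 32.7, 37.8 and 28.7 CPM against 99.7, 57 and 78.4 CPM, and March8 at 22.3, 48.2 and 22.3 CPM against 85.2, 56.9 and 70.1 CPM. All Lyve-1+ libraries lay above all Lyve-1- libraries for both genes, as for 7.82% of all genes tested. Neither passed the test in edgeR or DESeq2, though both had an unadjusted p under 0.05, with log2 fold changes of 1.24 (SE 0.39; adjusted p 0.268) and 1.19 (SE 0.44; adjusted p 0.407).

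Of 8 tested neighbours of the members on chromosome 17, 6 had lower and 2 higher means, with a median of -0.22 and 0 under an adjusted p of 0.05 in edgeR. The lowest was H2-Ea-ps, annotated as a pseudogene of the class II E alpha chain, at 159.7, 111 and 113 CPM against 18.4, 60.1 and 50.5 CPM. Its groups did not overlap, with a log2 fold change of -1.57 (SE 0.42; adjusted p 0.149), and it was the 1 gene of the list with an unadjusted p under 0.05 and the 1 under an adjusted p of 0.05 in DESeq2 (0.0392). The class I peptide transporters Tap1 and Tap2 and the bromodomain gene Brd2, which lie among the class II genes, were at -0.16, -0.24 and 0.19 on the log2 scale (SE 0.35, 0.37 and 0.23). The highest was Btnl2, a butyrophilin-like gene, at 0.81 (SE 0.86; adjusted p 1).

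**Figure D4:**
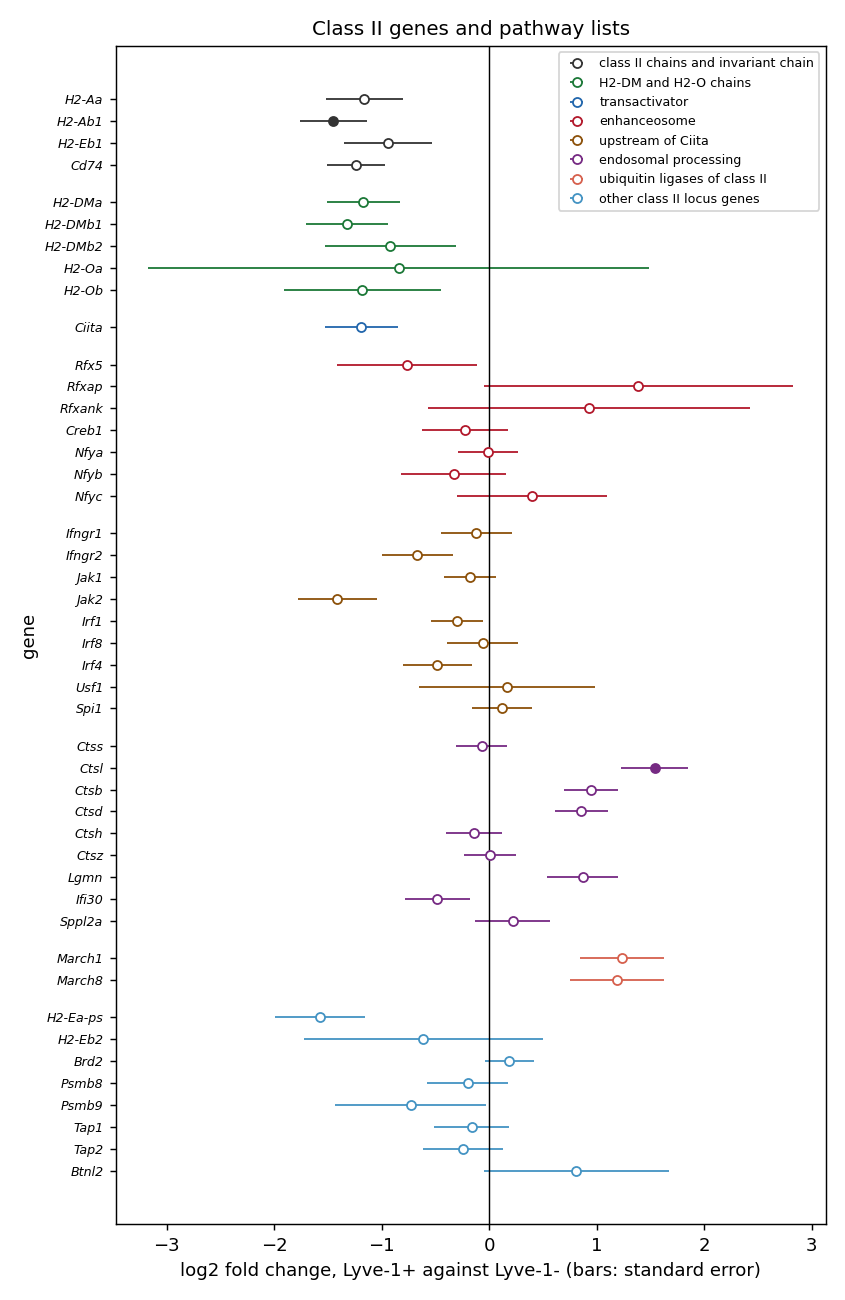
Log2 fold change of Lyve-1+ against Lyve-1- cells for the members and for genes of the pathway lists, with bars for the standard error and colours for the lists; filled points have an adjusted p under 0.05 in edgeR. The 10 members all lie below 0, with H2-Ab1 filled, while the enhanceosome genes lie on both sides of 0 and Ctsl is filled above 0.

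Other cells that carry class II could enter the gate, and their markers were read beside the members. Of 9 tested markers of conventional dendritic cells 8 had lower means in Lyve-1+ cells. The median of their log2 fold changes was -1.06, and their summed level was 519 to 1064 CPM in Lyve-1- and 161 to 536 CPM in Lyve-1+ libraries. Ccr7, the homing receptor of mature dendritic cells, was at 139, 458 and 505 CPM against 14.8, 59.6 and 107 CPM, without overlap (log2 fold change -2.61, SE 0.78, adjusted p 0.36 in edgeR and 0.00129 in DESeq2). Flt3, a growth factor receptor of dendritic cells, was at 8.91, 58.7 and 51.9 CPM against 4.19, 5.17 and 27.3 CPM. It was high in replicates 2 and 3 of the Lyve-1- subset and in replicate 3 of the Lyve-1+ subset, as was H2-Ob. Clec9a was at 0 counts in Lyve-1- replicate 2 and Lyve-1+ replicate 3. In edgeR 0 of these 9 markers had an adjusted p under 0.05 and 1, Ccr7, an unadjusted p under 0.05, and Ccr7 was also the 1 marker under an adjusted p of 0.05 in DESeq2. Among the Lyve-1- libraries, Flt3, Ccr7, Itgax, Zbtb46, Xcr1 and Dpp4 were lowest in replicate 1. The markers Batf3 and Clec9a were highest there, as were Cd74, H2-Ab1 and H2-Aa, and Cd209a lay between. Among the Lyve-1+ libraries, Flt3, Ccr7, Itgax, Dpp4, Cd209a and Batf3 rose from replicate 1 to replicate 3, as did Cd74, H2-Ab1 and H2-Aa. Xcr1, Zbtb46 and Clec9a were highest in Lyve-1+ replicate 2. The part of dendritic cells in the members' difference was not tested.

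B cells, which also express class II and H2-O, were marked by 6 tested genes with summed levels of 3.02 to 39.4 CPM in Lyve-1- and 13 to 116 CPM in Lyve-1+ libraries, and 5 of the 6 had higher means in Lyve-1+ cells. Monocyte markers summed to 408 to 878 CPM against 233 to 636 CPM, with 4 of 5 lower, and T cell markers to 125 to 191 CPM against 48 to 196 CPM, with 4 of 5 tested lower. Mammary epithelium markers were lower in 5 of 5 genes (39.9 to 228 against 31.9 to 67.8 CPM) and fibroblast markers higher in 5 of 5 (199 to 286 against 395 to 1327 CPM). Lymphatic endothelium markers summed to 42.9 to 67 against 45 to 111 CPM, with Ccl21a at 0 in every library. In these 6 lists 0 markers passed an adjusted p of 0.05 in edgeR, while the fibroblast markers Pdgfra, Lum, Col6a1 and Col6a2 did in DESeq2 and those 4 with Cd3g, Ccr2 and Epcam had an unadjusted p under 0.05. Their part in the members' difference was not tested. Of 5 markers of Lyve-1 macrophages, a list that holds the sort gene, all 5 were higher and 4 passed an adjusted p of 0.05.

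The genes most like the members were sought over the 6 libraries, among 10823 genes with a mean of at least 50 raw counts, by the root mean square difference between a gene's centred log2 CPM and the median of the members. H2-DMa (0.048) and Cd74 (0.058) were closest to that median, and H2-Aa, H2-Ab1, Ciita and H2-DMb1 were within the first 15 genes. H2-Eb1 ranked 47, H2-DMb2 428 and H2-Ob 1761. The members themselves set that median, so their closeness to it is in part built in and is no evidence that they vary together. The nearest genes outside the members were Myo1g, a myosin of blood cells (0.111), the glucose transporter Slc2a1 (0.133), the cAMP phosphodiesterase Pde4b (0.139), the diacylglycerol kinase Dgka (0.171) and the adaptor Samsn1 (0.173). Their log2 fold changes ran from -0.93 to -1.42, with adjusted p-values of 0.0799 to 0.472, and the likeness is a description over 6 libraries.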

How the data were processed

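Per the labels and the study's methods, RNA was extracted from sorted cells, libraries were made with a stranded total RNA kit for small inputs, and the authors aligned paired reads to mm10 (GRCm38) with HISAT2 2.0.2 and counted them per gene with featureCounts 1.5.0 of Subread. The strand setting and the annotation used for counting are not given in the sources used here. The deposited values are raw counts, without normalization, for 24061 gene symbols in 6 libraries. The methods name a removal of short genes before testing and a 6-week library left out by the authors as an outlier, which was not analysed here.

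From these counts, R 4.3.3 and edgeR 4.0.16 were used. Genes were kept by filterByExpr, scaled by TMM and tested by the robust quasi-likelihood F test on a single term, the subset, with p-values adjusted by Benjamini-Hochberg over 13348 genes (common biological coefficient of variation 0.931). The call limits were an adjusted p under 0.01 with a log2 fold change between 1 and 10 in either direction, and an adjusted p under 0.05. DESeq2 1.42.0, other scalings and filters, a replicate block, age, and libraries left out in turn were alternatives, all tested over the whole table. The calculation was tested on simulated data. Exon lengths and positions came from GENCODE M21 on mm10, taking the union of exons of basic protein-coding transcripts. The depth of 6478007 to 21406839 counts allows up to 3 counts where a gene is at 0, a limit that covers counting error only. FVB/N differs from the reference strain at H2, which may lower mapping to polymorphic chains in both subsets.

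The members and all lists were chosen with earlier results of these data known. The genes named were the 10 members, Lyve1, the extremes of each pathway list and genes under 0.05 in it (1 of these is not reported here), the 5 most similar genes and defining markers. Ctss, Ctsb, Ctsd, Lgmn, Tap1, Tap2, Brd2 and the second ubiquitin ligase were named after their values were seen.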

Additional observations from a re-analysis of the deposited data

How the results depend on the processing

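Every tested member had a log2 fold change below 0 in all alternatives run but one: with Lyve-1- replicate 3 and Lyve-1+ replicate 2, which had the highest olfactory receptor counts, both left out, a choice made after seeing the data, H2-Oa stood at 0.13 and 9 of 10 members were lower. The median ran from -1.6 to -0.87. Calls depended more on the settings. Against 0 members called at an adjusted p under 0.01, there were 2 with DESeq2 (H2-Ab1 and Cd74), 3 without a filter on low counts (H2-Aa added) and 1 when the limit was an adjusted p under 0.05 alone. Leaving out 1 library at a time gave 0 to 2 members, the 2 without Lyve-1+ replicate 3. With age as a covariate 0 were called, with adjusted p-values in edgeR of 0.0116 for H2-Ab1 and 0.0125 for Cd74. With at least 10 counts in every library 0 were called, at 0.0202 and 0.0257 for these genes. Of the pathway genes, 0 were called in the main test, 1 with DESeq2 (Ctsl), 3 without the filter (Ctsl, Jak2 and H2-Ea-ps), 1 under the adjusted p limit of 0.05, and 0 to 1 with a library left out (Ctsl without Lyve-1- replicate 2); this list was recounted after the data were seen. The number of member ratios without overlap ran from 0 to 3 when 1 library was left out, which leaves fewer samples to overlap. The causes of the other changes were not tested. With 10-week libraries alone the H2-Ab1 difference was -1.07 on the log2 scale (adjusted p 0.207 in edgeR), with Lyve-1- replicate 3 and Lyve-1+ replicate 1, the libraries with counts in the most olfactory receptor genes, both left out -1.16 (0.271), and with Lyve-1- replicate 3 and Lyve-1+ replicate 2 both left out -1.55 (0.35). Calls over all genes ran from 0 with either pair left out to 188 without the filter, against 15 in the main test. H2-Oa could not be tested at a minimum of 10 counts in every library.

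With the replicate number as a block, 2 members (H2-Ab1, adjusted p 0.00248, and Cd74, 0.000577, in edgeR) and 1 pathway gene (Ctsl) were called, and 140 of all genes. The labels do not say whether same-numbered libraries came from the same mice, though they share an age. Deviations of same-numbered libraries correlated at -0.05, 0 and -0.15, and 0 of 6 libraries correlated best with its own number. With 3 libraries a subset this cannot decide whether same-numbered libraries are pairs. The main test took no pairs, and the block is given as an alternative.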
